A study of Mus musculus with 8 samples.

Results

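The 53 genes described here are interferon-stimulated genes, which cells switch on in answer to interferon. They were chosen by what they are known to do, and 1 of them, Mx1, was also picked out on its small p in the comparison of 4-HPAA with normal saline. The question was whether the other 52 genes followed Mx1. All 53 were found among the 35975 genes with a listed transcript, and all 53 were among the 12883 genes that had at least 10 counts in every library. Because the list was drawn up with these results known, its values in this comparison are given as a description, and the list was not tested.

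Liver RNA was sequenced from 8 C57BL/6 mice, 4 in each group. The methods state that C57BL/6J males and females were bought at 8 to 10 weeks of age, before surgery. Every mouse, controls included, had its portal vein cannulated and an osmotic pump implanted, and was housed alone afterwards. The pump delivered normal saline (NS) or 55 mM 4-hydroxyphenylacetic acid (4-HPAA), a small phenolic acid made by gut bacteria, in saline at 0.25 µL per hour for 2 weeks. Mice without surgery were not analysed here, and both groups are livers after a cannulation. The labels give no sex. The Y-linked gene Ddx3y was read at 72.1 to 89.5 CPM (counts scaled to a common library size) in all 8 libraries, so each read as male by this gene.

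The libraries held 29559978 to 30673398 estimated counts each, with no difference between the groups beyond their spread (exact permutation test, two-sided, p = 0.343). Hepatocyte markers were read at 99340 to 125893 summed CPM in every library. Saline mouse 2 and 4-HPAA mouse 4 stood apart in red blood cell RNA. The 5 hemoglobin and erythroid genes summed to 2560 CPM in saline mouse 2 against 247 to 376 in the other saline mice. The same sum was 734 CPM in 4-HPAA mouse 4 against 152 to 163 in the other 4-HPAA mice. Values without both mice are given below where they bear on a count.

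Type I interferons (the alpha and beta families) bind the receptor made of IFNAR1 and IFNAR2, and the kinases JAK1 and TYK2 then phosphorylate transcription factors, STAT2 among them. STAT2 and IRF9 are part of a complex that binds the interferon-stimulated response element (ISRE) in the promoters of antiviral genes. Interferon gamma acts through IFNGR1 and IFNGR2, and its signal reaches the gamma-activated sequence (GAS) in promoters of genes such as Irf1, the immunity-related GTPases and the antigen-processing genes. In the liver, hepatocytes, Kupffer cells and lymphocytes can all carry these transcripts, and in bulk tissue fewer cells of a type cannot be told apart from less RNA per cell.

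The promoters of 5 members are shown as examples. Irf1, Igtp and Irgm2 shared the same highest mice of their groups, saline mouse 3 and 4-HPAA mouse 2. Isg15 was highest in saline mouse 2 and 4-HPAA mouse 1, and Ifit1 in saline mouse 4 and 4-HPAA mouse 2. Each run is the 250 bases before the RefSeq start site (GRCm38.p6), read 5′ to 3′ on the gene's own strand. Capitals mark matches to GAAANNGAAA, an ISRE core, or to TTCNNNGAA, a GAS core, on either strand, with overlapping matches counted separately.
Isg15, chr4:156200819-156201068, minus strand: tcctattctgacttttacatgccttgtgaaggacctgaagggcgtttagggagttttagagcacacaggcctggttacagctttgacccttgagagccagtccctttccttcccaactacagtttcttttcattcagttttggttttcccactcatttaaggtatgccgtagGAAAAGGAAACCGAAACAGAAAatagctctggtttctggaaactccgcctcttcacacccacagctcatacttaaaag
Ifit1, chr19:34640639-34640888, plus strand: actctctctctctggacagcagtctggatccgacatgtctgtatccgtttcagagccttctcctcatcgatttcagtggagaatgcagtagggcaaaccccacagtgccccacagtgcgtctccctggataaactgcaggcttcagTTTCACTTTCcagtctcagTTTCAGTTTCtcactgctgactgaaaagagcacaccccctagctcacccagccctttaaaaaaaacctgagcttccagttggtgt
Irf1, chr11:53769764-53770013, plus strand: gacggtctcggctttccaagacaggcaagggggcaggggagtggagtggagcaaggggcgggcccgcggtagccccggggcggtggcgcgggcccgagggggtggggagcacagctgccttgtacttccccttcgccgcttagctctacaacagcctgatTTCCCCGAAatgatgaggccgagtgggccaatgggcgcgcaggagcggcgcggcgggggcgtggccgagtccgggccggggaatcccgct
Igtp, chr11:58199306-58199555, plus strand: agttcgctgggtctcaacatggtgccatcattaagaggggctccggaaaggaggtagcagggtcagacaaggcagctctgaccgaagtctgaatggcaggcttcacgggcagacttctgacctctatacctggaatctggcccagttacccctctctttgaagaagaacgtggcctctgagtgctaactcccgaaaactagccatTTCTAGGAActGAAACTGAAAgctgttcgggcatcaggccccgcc
Irgm2, chr11:58214727-58214976, plus strand: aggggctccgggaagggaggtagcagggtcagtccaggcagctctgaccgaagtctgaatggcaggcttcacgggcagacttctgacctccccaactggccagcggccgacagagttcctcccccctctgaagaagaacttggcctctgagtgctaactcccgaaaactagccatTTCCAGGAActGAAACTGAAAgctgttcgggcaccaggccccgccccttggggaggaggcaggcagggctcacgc

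In Isg15, which encodes the ubiquitin-like protein ISG15, 3 overlapping ISRE cores began 78, 72 and 66 bases before the start site. The promoter of Ifit1, whose product binds viral RNA, held 2 ISRE cores on the opposite strand, 104 and 85 bases before the start. Irf1 has 2 RefSeq entries, of which the one shown held a GAS core alone, 90 bases before the start, and the other held neither core. Igtp and Irgm2, neighbours that encode immunity-related GTPases, each held a GAS core followed by an ISRE core. These began 45 and 34 bases before the start in Igtp and 75 and 64 bases before it in Irgm2. The printed promoters of these 2 genes shared an unbroken run of 55 identical bases.

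Of the 53 genes, 39 had a RefSeq promoter entry that runs from 250 bases before to 50 bases after the start. An ISRE core was found in 20 of the 39 (51.3%), against 3.99% of 27025 genes with a promoter entry. A GAS core was found in 10 of the 39 (25.6%), against 9.55% of those genes, and both cores in 6 (15.4% against 0.614%). The 6 with both were Oas1a, Bst2, Eif2ak2, Igtp, Irgm2 and Gbp7. The ISRE core was found in 6 of 7 GTPase genes, in 9 of 17 antiviral effectors and in 0 of 3 antigen-processing genes. A match is a description of the letters and not evidence of a bound site. The entries did not include Mx1, Mx2, Oas2, Rtp4, Ifi27, Zbp1, Ly6e, Dhx58, Usp18, Parp9, Parp14, Iigp1, Tap2 and Nlrc5.

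With all 8 mice, 13 of the 52 genes other than Mx1 shared its direction and 39 did not. Their log2 fold changes between 4-HPAA and saline lay between -0.37 and 0.45, while Mx1 stood at -0.89. Over all 53, the median log2 fold change was 0.06, against 0.00 over all genes tested, of which 50.4% were above 0. The size of the log2 fold change was under its own standard error (SE) in 41 of the 53 genes (77.4%), as in 77.1% of all genes tested. An adjusted p under 0.05 (edgeR quasi-likelihood test, Benjamini-Hochberg) was reached by 0 of the 53 genes and 0% of all genes. An unadjusted p under 0.05 was reached by Mx1 only, on the lower side, against 1.75% of all genes in either direction and 0.994% on the lower side. The 2 groups overlapped in all 53 genes, while 1.2% of all genes did not overlap.

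**Figure D1:**
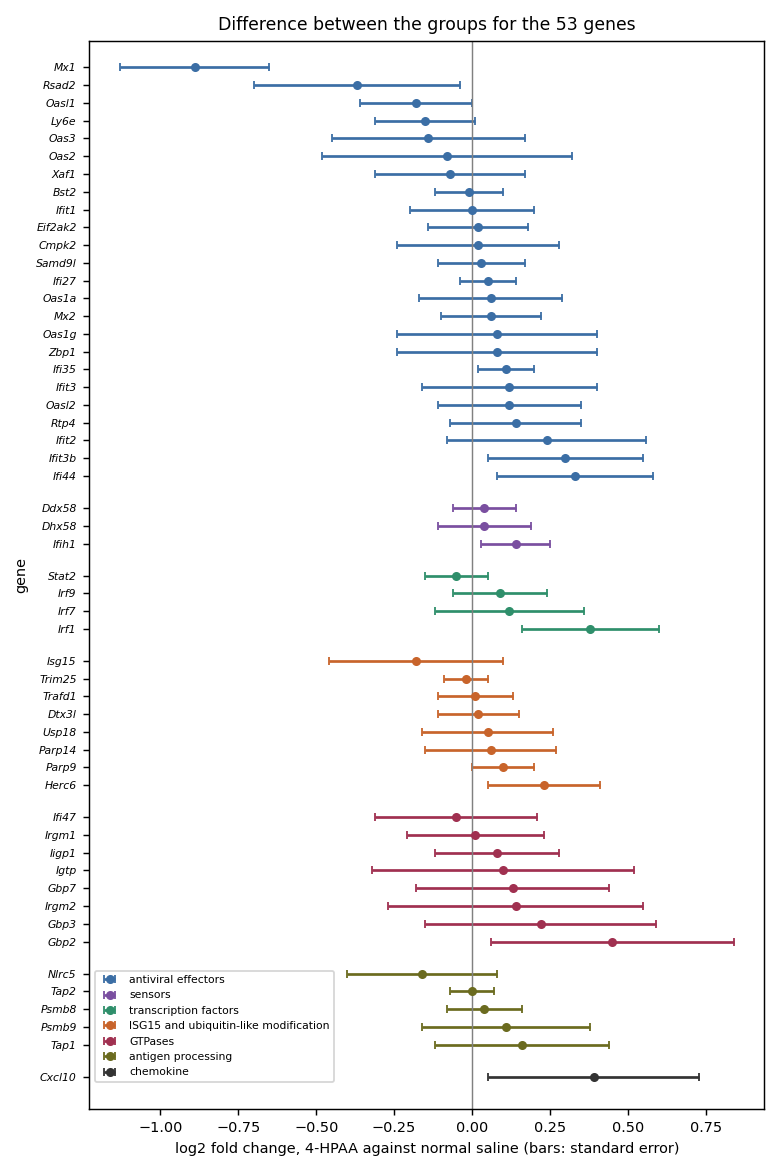
Log2 fold change of each of the 53 genes, 4-HPAA against normal saline (n = 4 mice each), grouped and coloured by role, with bars for the standard error. Mx1, at -0.89, lies apart from the other 52, which run from -0.37 to 0.45 around 0.

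Mx1 encodes a GTPase that blocks influenza-like viruses, and C57BL/6 mice are known to carry a disrupted copy that gives no working protein. It lies on chromosome 16 at 97447035 to 97462907 of GRCm38, on the minus strand. In saline mice 1 to 4 it was read at 4.07, 8.03, 5.74 and 8.59 CPM, and in 4-HPAA mice 1 to 4 at 4.5, 3.07, 3.36 and 3.32 CPM. 4-HPAA mice 2, 3 and 4 lay below all saline mice, but 4-HPAA mouse 1 lay above saline mouse 1. The 4-HPAA level was 0.54 of the saline level, a log2 fold change of -0.89 (SE 0.24, n = 4 each). The p that picked it out was 0.00378, and its adjusted p was 1.00 (edgeR quasi-likelihood test).

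Most of the reads given to Mx1 belonged to 1 of its 10 annotated transcripts. ENSMUST00000135184.7, which the annotation marks as a target of nonsense-mediated decay, held 78.3% to 95.5% of the gene's counts in each library. That transcript had 184 ± 51.8 estimated counts in the saline mice and 93.9 ± 19.2 in the 4-HPAA mice (mean ± SD, n = 4). The other 9 transcripts together had 12.6 ± 6.16 and 11.3 ± 6.23. The difference between the groups in Mx1 was therefore carried by counts given to the transcript marked for decay.

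Mx2, the neighbouring paralog and annotated as a polymorphic pseudogene, had groups at much the same level. Its levels were 3.72, 4.97, 4.36 and 5.12 CPM in saline mice 1 to 4 and 5.66, 5.07, 4.24 and 3.92 CPM in 4-HPAA mice 1 to 4. Saline mouse 4 and 4-HPAA mouse 1 were highest of their groups in both Mx1 and Mx2, a pairing found in these 2 members only and in 5.78% of all genes. The log2 fold change of Mx2 was 0.06 (SE 0.16). The order of the saline mice in Mx1 (4, 2, 3, 1 from high to low) was shared by Mx2, Ifit1 and Oasl1, which is 3 of 52 members and compares with 5.12% of all genes. The order of the 4-HPAA mice in Mx1 was shared by 0 of 52 members (2.13% of all genes). Mx2, Ifit1, Rsad2, Igtp, Irgm2 and Irf7 were chosen for description after their values were seen. Other members named outside the naming rule, which is given with the processing, were also picked with values known.

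**Figure D2:**
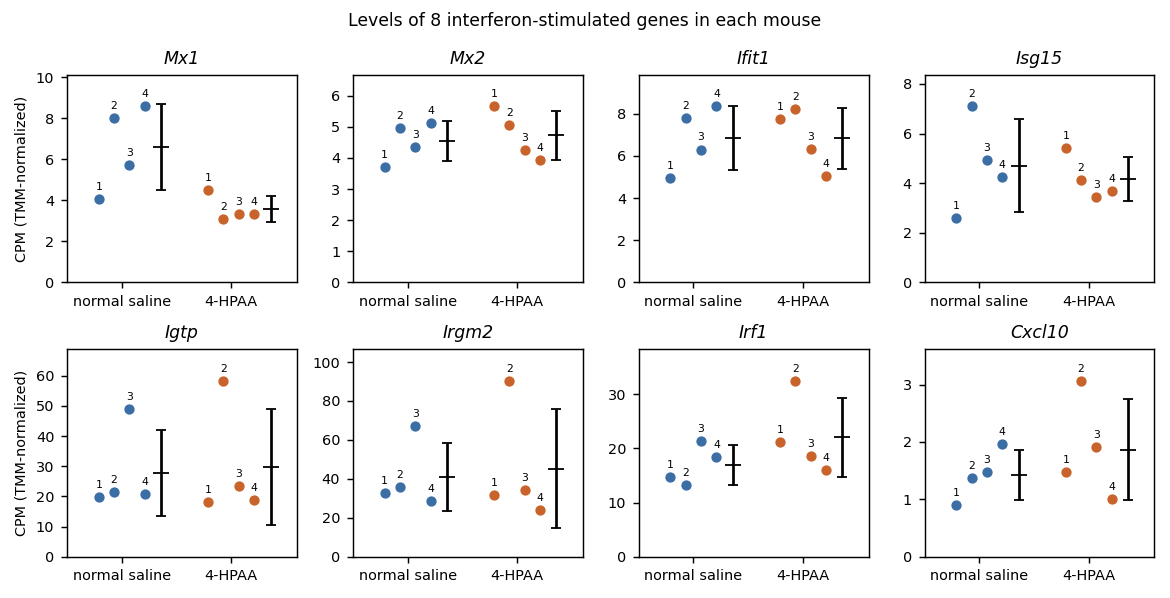
CPM of 8 interferon-stimulated genes in each mouse (points, numbered by replicate), with the mean and SD of the 4 mice of a group as horizontal marks and bars. Mx1 is lower in 3 of the 4 4-HPAA mice, Mx2 and Ifit1 overlap in most mice, and Igtp and Irgm2 are set by saline mouse 3 and 4-HPAA mouse 2.

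Among the 24 antiviral effectors, 15 had a log2 fold change above 0 and 9 below, with a median of 0.04. Ifit1 was read at 4.97, 7.79, 6.30 and 8.35 CPM in saline mice 1 to 4 and at 7.75, 8.24, 6.34 and 5.04 CPM in 4-HPAA mice 1 to 4. The 2 groups covered the same span, and the log2 fold change was 0.00 (SE 0.20). Rsad2, which encodes the antiviral enzyme viperin, had the second most negative value at -0.37 (SE 0.33). Its saline levels were 5.80, 16.1, 4.85 and 8.62 CPM, against 6.14, 7.54, 7.47 and 6.12 CPM with 4-HPAA. The high saline value was that of mouse 2, and the log2 fold change lay between -0.57 and 0.08 as each mouse was left out.

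Ly6e, which encodes a surface protein that limits coronavirus entry, was the most abundant of the 53 genes per unit of transcript length, at 265 ± 46.9 TPM (CPM corrected for transcript length; mean ± SD over the 8 mice). Its saline levels were 153, 174, 172 and 173 CPM, and its 4-HPAA levels 157, 199, 109 and 140 CPM. Both the highest and the lowest mouse were in the 4-HPAA group, and the log2 fold change was -0.15 (SE 0.16). Bst2, which encodes the virion tether tetherin, followed at 180 ± 17.0 TPM. At the other end were Oas3 at 0.692 ± 0.201 TPM and Oas2 at 1.28 ± 0.511 TPM, synthases of the messenger that activates RNase L. Mx1 itself was at 2.97 ± 1.14 TPM.

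Ifi44, a gene named for its induction by interferon, had the largest log2 fold change of the effectors at 0.33 (SE 0.25). It was read at 2.24, 2.44, 3.54 and 2.54 CPM in the saline mice and 3.25, 4.93, 2.23 and 3.15 CPM in the 4-HPAA mice. The lowest and the highest mouse were again both in the 4-HPAA group. The paralogs Ifit3 and Ifit3b, and Oas1a and Oas1g, are similar enough for reads to be split between them. Their log2 fold changes were 0.12 (SE 0.28) and 0.30 (SE 0.25) for the first pair, and 0.06 (SE 0.23) and 0.08 (SE 0.32) for the second.

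The 3 cytosolic RNA sensors varied little, with a median SD within groups of 0.17 on the log2 scale. Ifih1, which encodes the long double-stranded RNA sensor MDA5, was at 27.1, 33.3, 35.5 and 30.8 CPM in the saline mice. With 4-HPAA it was at 34.1, 41.0, 32.6 and 31.4 CPM, a log2 fold change of 0.14 (SE 0.11). Only 4-HPAA mouse 2 lay above all saline mice. Ddx58 and Dhx58, which encode RIG-I and the regulator LGP2, both had a log2 fold change of 0.04, with SE of 0.10 and 0.15.

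Of the 4 transcription factors, Irf1 had the largest log2 fold change, 0.38 (SE 0.22). Its levels were 14.7, 13.2, 21.3 and 18.4 CPM in the saline mice and 21.1, 32.5, 18.5 and 16.0 CPM in the 4-HPAA mice. All 4 saline mice lay below 4-HPAA mouse 2, and the other 3 mice given 4-HPAA lay within the saline range. Stat2 was at 46.8, 50, 53.6 and 49.6 CPM with saline and 45.9, 56.0, 51.0 and 40 CPM with 4-HPAA, a log2 fold change of -0.05 (SE 0.10). The 4-HPAA mice spanned the saline mice on both sides. Irf7, the factor that amplifies type I interferon production, had a log2 fold change of 0.12 (SE 0.24) and shared exon sequence with the opposite-strand gene Phrf1. Irf9 stood at 0.09 (SE 0.15).

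The 8 genes of ISG15 and ubiquitin-like modification had log2 fold changes between -0.18 and 0.23. Isg15 was read at 2.60, 7.10, 4.92 and 4.23 CPM in the saline mice and 5.41, 4.13, 3.46 and 3.67 CPM in the 4-HPAA mice. The saline mice held both the lowest and the highest value, and the log2 fold change was -0.18 (SE 0.28). Herc6, which encodes the ligase that attaches ISG15 in mice, was at 11.4, 13.6, 15.8 and 13.0 CPM with saline and 15.6, 21.5, 15.0 and 11.0 CPM with 4-HPAA. Its log2 fold change was 0.23 (SE 0.18), with the highest and the lowest mouse both given 4-HPAA. Trim25, a ubiquitin ligase of the RIG-I pathway, had the tightest values, 91.2 to 101 CPM with saline and 90.9 to 98.9 CPM with 4-HPAA, and a log2 fold change of -0.02 (SE 0.07). Parp9 and Dtx3l, whose proteins act as a pair, also share exon sequence on opposite strands, and stood at 0.10 (SE 0.10) and 0.02 (SE 0.13).

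The 8 interferon-inducible GTPases varied most between mice, with a median SD within groups of 0.59 on the log2 scale. They act on the vacuoles of intracellular pathogens. Igtp was read at 19.7, 21.4, 49.1 and 20.8 CPM in saline mice 1 to 4 and at 18.3, 58.4, 23.3 and 18.8 CPM in 4-HPAA mice 1 to 4. Irgm2 was read at 32.5, 35.6, 67.0 and 28.8 CPM and at 31.7, 90.5, 34.5 and 24.2 CPM in the same order. In both genes 1 mouse of each group stood far above the other 3, saline mouse 3 and 4-HPAA mouse 2. Their log2 fold changes were 0.10 (SE 0.42) and 0.14 (SE 0.41), well within that spread. Igtp and Irgm2 overlap in exons on the same strand, so reads may be shared between them.

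Iigp1, the most abundant GTPase, was at 244, 292, 356 and 267 CPM with saline and 339, 403, 283 and 201 CPM with 4-HPAA. Its lowest and highest mouse were both given 4-HPAA, and the log2 fold change was 0.08 (SE 0.20). Gbp2, a guanylate-binding protein, had the largest log2 fold change of the 53 genes, 0.45 (SE 0.39). The saline levels were 4.94, 2.40, 3.87 and 2.23 CPM and the 4-HPAA levels 3.42, 8.54, 3.79 and 2.62 CPM. Mouse 2 alone of the 4-HPAA group lay above the saline mice, and without it the log2 fold change was -0.04. Ifi47 was the single GTPase below 0, at -0.05 (SE 0.26).

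Of the 5 antigen-processing genes, Tap1, a subunit of the peptide transporter, was at 13.2, 20.2, 29.8 and 19.7 CPM with saline and 20.3, 35.9, 19.8 and 16.8 CPM with 4-HPAA. Mouse 3 of the saline group and mouse 2 of the 4-HPAA group were again the highest, and the log2 fold change was 0.16 (SE 0.28). Tap1 shares exon sequence with Psmb9, an immunoproteasome subunit on the other strand, at 0.11 (SE 0.27). Nlrc5, the transactivator of class I genes, was at 27.4, 36.2, 39.5 and 24.8 CPM with saline and 34.0, 38.0, 25.7 and 16.6 CPM with 4-HPAA. The lowest mouse was 4-HPAA mouse 4, and the log2 fold change was -0.16 (SE 0.24). Tap2 hardly varied, with an SD within groups of 0.07 and a log2 fold change of 0.00 (SE 0.07).

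The chemokine Cxcl10, which draws T cells and natural killer cells, was low, at 0.898, 1.37, 1.48 and 1.96 CPM in the saline mice (28 to 57 counts). With 4-HPAA it was at 1.47, 3.07, 1.91 and 1.01 CPM (29 to 92 counts), a log2 fold change of 0.39 (SE 0.34). 4-HPAA mouse 2 lay above every other mouse, and the remaining 3 lay within the saline range. Cxcl10 overlaps an exon of the opposite-strand gene Art3.

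The differences between mice of the same group were wider in these genes than in the transcriptome. The median SD within groups was 0.38 on the log2 scale, against 0.18 over all genes tested, and 44 of the 53 genes lay above that 0.18. The median abundance was close, 12.3 CPM against 13.5 CPM over all genes. These SDs do not use the difference between the groups, but the genes share the same 8 mice and are not independent of each other.

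The genes moved together from mouse to mouse. Saline mouse 3 was the highest saline mouse in 28 of the 53 genes (52.8%), against 27.5% of all genes tested, and saline mouse 2 in 19 (35.8% against 22.3%). Mouse 2 of the 4-HPAA group was the highest 4-HPAA mouse in 44 (83.0% against 26.0%). The lowest mice were saline mouse 1 in 34 genes (64.2% against 25.7%) and 4-HPAA mouse 4 in 37 (69.8% against 34.4%). Log2 deviations were taken from each gene's mean in the mouse's own group. Their median over the 53 genes was 0.42 in 4-HPAA mouse 2 and -0.40 in 4-HPAA mouse 4. It was 0.19 in saline mouse 3 and -0.25 in saline mouse 1. Mx1 and Ifi35 went against this pattern in the 4-HPAA group: mouse 2, the highest in 44 members, was the lowest in these 2.

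**Figure D3:**
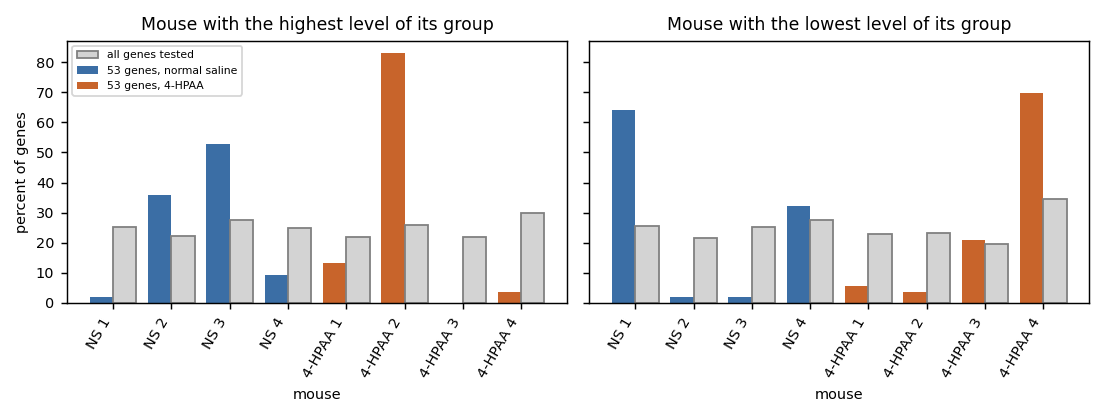
Percent of genes in which each mouse had the highest (left) or lowest (right) level of its group, for the 53 interferon-stimulated genes (coloured) and all 12883 genes tested (grey). 4-HPAA mouse 2 was highest in 83.0% and 4-HPAA mouse 4 lowest in 69.8% of the 53 genes.

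The highest saline mouse differed between roles. Saline mouse 3 and 4-HPAA mouse 2 were both highest in 27 members (11.7% of all genes), which were 7 of the 8 GTPases, all 5 antigen-processing genes, Irf1, Irf9, Stat2, 4 genes of ubiquitin-like modification (Herc6, Parp9, Parp14 and Dtx3l), 2 sensors (Ddx58 and Ifih1) and 6 antiviral effectors (Rtp4, Ifi27, Ifi44, Zbp1, Eif2ak2 and Samd9l). Saline mouse 2 and 4-HPAA mouse 2 were both highest in 13 members (6.63% of all genes), which were Ifit2, Ifit3, Ifit3b, Oas1g, Oas3, Oasl2, Rsad2, Xaf1, Cmpk2, Ly6e, Irf7, Trim25 and Trafd1. In the GTPases the median log2 deviation from the group mean was 0.58 in saline mouse 3 and 0.87 in 4-HPAA mouse 2. It was -0.08 in saline mouse 2. In the antiviral effectors both saline mice lay above the saline mean, at 0.22 in mouse 2 and 0.12 in mouse 3. Of the members with a promoter entry, a GAS core was found in 6 of 19 in the first set and in 1 of 12 in the second. An ISRE core was found in 9 of 19 and in 5 of 12. These sets were read off the levels, so their promoters are described without a test.

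**Figure D4:**
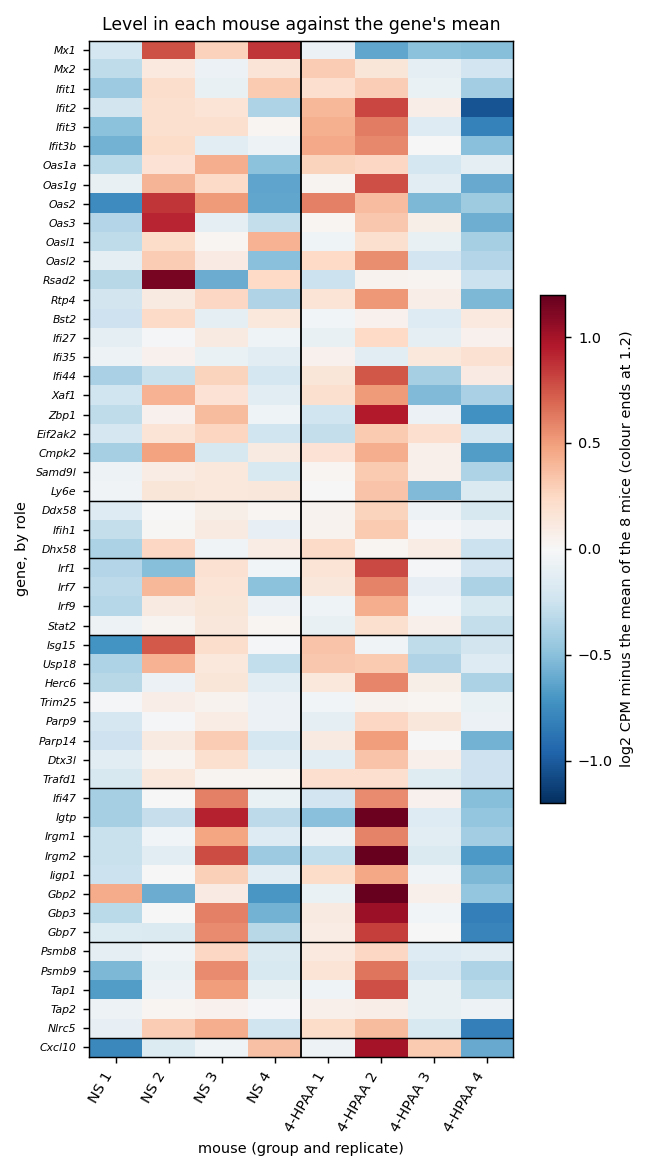
Level of each of the 53 genes (rows, grouped by role) in each mouse (columns), as log2 CPM minus the gene's mean over the 8 mice, with colours ending at 1.2. 4-HPAA mouse 2 is high and 4-HPAA mouse 4 low across most genes, and saline mouse 3 is high in the GTPases and antigen-processing genes.

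Which way the 53 genes pointed as a group depended on single mice. Without 4-HPAA mouse 2, 10 genes had a log2 fold change above 0 and 43 below, and the median turned to -0.08. Without saline mouse 1 the counts were 22 and 31, and the median was -0.02. Without 4-HPAA mouse 4 they were 46 and 7, and the median was 0.13. Direction turned in 39 of the 53 genes when some mouse was left out. The share over all genes is not given here, so this number does not set the 53 apart. Beside Mx1, which its p on the same mice had picked out, an unadjusted p under 0.05 was reached by Ly6e without 4-HPAA mouse 2, where 1.96% of all genes reached it. Irf1, Herc6 and Ifit2 reached it without 4-HPAA mouse 4, with 2.21% of all genes. Without both mice high in red cell RNA, 3 genes lay below 0, the median was 0.20, and 3 genes had an unadjusted p under 0.05, with 2.18% of all genes.

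**Figure D5:**
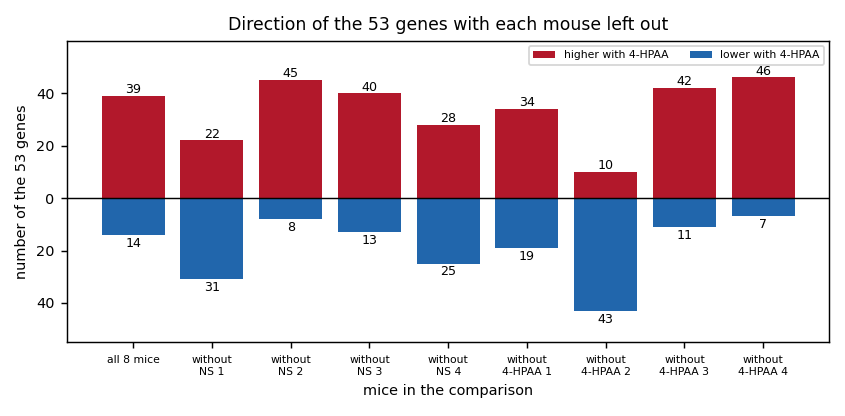
Number of the 53 genes with a log2 fold change above 0 (red, upward) and below 0 (blue, downward), with all 8 mice and with each mouse left out. The split was 39 and 14 with all mice, 10 and 43 without 4-HPAA mouse 2, and 46 and 7 without 4-HPAA mouse 4.

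Markers of Kupffer cells and of sinusoidal endothelium moved with some of the same mice. The 8 Kupffer cell markers, none at 0 in any library, summed to 119, 312, 209 and 99.0 CPM in the saline mice and 194, 266, 145 and 92.2 CPM in the 4-HPAA mice. Saline mouse 2 and 4-HPAA mouse 2 were highest of their groups in all 8 of them. The 8 T and natural killer cell markers, also none at 0, summed to 2.60 to 4.03 CPM with saline and 2.52 to 4.37 CPM with 4-HPAA. Each had 1 to 29 counts per library and 6 of the 8 were under the count minimum, so which mouse is highest in them rests on few reads. The 4 sinusoidal endothelial markers summed to 79.7 to 116 CPM with saline and 77.1 to 132 CPM with 4-HPAA. Saline mouse 3 and 4-HPAA mouse 2 were highest of their groups in 3 of these 4. Lyve1 went the other way, highest in saline mouse 1 and 4-HPAA mouse 4. Sums over 4 markers each lay at 15.5 to 20 and 17.2 to 19.8 CPM for plasmacytoid dendritic cells, 2.12 to 3.12 and 1.2 to 2.5 CPM for B cells, and 0.609 to 1.34 and 0.485 to 1.15 CPM for neutrophils. Most of the plasmacytoid dendritic cell sum was Tcf4, at a mean of 14.4 CPM. Siglech was at 2.63, Ccr9 at 1.17 and Cox6a2 at 0.0294 CPM. Under the count minimum were 3 of the 4 neutrophil markers, 1 of the 4 B cell markers and 1 of the 4 plasmacytoid dendritic cell markers. The part of these cells in the levels of the 53 genes was not tested.

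None of the 5 receptor genes and 9 signalling genes tested reached an unadjusted p under 0.05 (edgeR quasi-likelihood test), a share that says little where 1.75% of all genes did. Of 19 interferon genes, 16 had 0 counts in every library and the highest count of any was 7, for Ifnk, so their levels were not measurable at this depth. Ifng, the type II interferon, had 0 to 2 counts per library and Ifnb1 had 0 in all 8. The receptor genes Ifnar1, Ifnar2, Ifngr1 and Ifngr2 had log2 fold changes of 0.09 (SE 0.10), 0.10 (SE 0.09), -0.04 (SE 0.13) and 0.20 (SE 0.11). The kinases Jak1 and Tyk2 stood at 0.02 (SE 0.08) and -0.01 (SE 0.09), and the factor Irf3, which starts interferon production, at -0.04 (SE 0.08). Socs1, the feedback inhibitor, was under the count minimum at 0.0962 to 0.30 CPM.

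In the list of 111 further pathway genes, 109 were found and 84 tested, with 40 above 0, 44 below and a median log2 fold change of -0.01. An adjusted p under 0.05 was reached by 0 of them and an unadjusted one by 3, which is set beside the 1.75% of all genes. Isg20, an RNA exonuclease, stood at -0.88 (SE 0.38), and was read at 1.96, 4.84, 1.51 and 1.65 CPM with saline against 1.40, 1.37, 0.971 and 1.68 CPM with 4-HPAA. Its high value was that of saline mouse 2, and the log2 fold change ran from -1.05 to -0.34 as each mouse was left out. Aim2, the cytosolic DNA sensor, stood at -0.51 (SE 0.18). Its levels were 1.28, 1.72, 1.51 and 1.24 CPM with saline against 0.943, 1.2, 0.971 and 0.909 CPM with 4-HPAA. These did not overlap, as in 1 of the 84 genes tested, a share near the 1.2% of all genes. Cxcl9, a chemokine induced by interferon gamma, stood at 0.62 (SE 0.28), with 4-HPAA mouse 2 at 15.8 CPM and the other 3 at 6.14 to 8.46 CPM. Isg20, Aim2 and Cxcl9 were named after their values were seen. The 9 genes of class I antigen presentation and the proteasome that are not among the 53 lay between -0.04 and 0.06.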

How the data were processed

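Liver RNA of 4 mice given normal saline and 4 given 4-HPAA was sequenced from directional mRNA libraries as 100 bp paired reads. The authors checked reads with FastQC 0.11.9 and pseudo-aligned them with kallisto at standard settings to GRCm38.p6 transcripts. They deposited estimated counts per Ensembl transcript, not normalized, with a column for each mouse (9.4% of values above 0 were whole). The methods state that flow cells were concatenated. They name NCBI transcript annotations, while the deposited transcripts carry Ensembl names. Whether strand was used in the pseudo-alignment is not given in the sources used here, so genes that overlap on opposite strands may share reads.

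Of 119414 transcripts, 116728 were matched to 35975 genes of GENCODE M21, and their estimated counts were summed per gene and rounded. The 2686 unmatched transcripts held 0.703% to 1.06% of a library's counts and were left out. Columns without a sample numbered 0. A gene entered the test if no library had under 10 counts, and edgeR 4.0.16 was used in R 4.3.3 (quasi-likelihood F test, TMM, Benjamini-Hochberg, threshold 0.05). This replaced the DESeq2 test named in the methods, which was run as an alternative. SE was taken as the size of the log2 fold change over the root of F. CPM are TMM-normalized, TPM use annotated transcript lengths, and log2 CPM a prior count of 2. The p-values judge the difference between the groups against the spread between mice of the same group. The steps were tested on simulated data.

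Samples were grouped by the treatment in the labels. The 53 genes, the pathway and marker lists and the rule for naming genes were chosen with earlier results of these data known. The rule took Mx1 and, in each role, the gene with the highest mean CPM and those with the largest and smallest log2 fold change, with set receptors, kinases and factors of the pathway. The other settings tried were limma-voom (limma 3.58.1), DESeq2 1.42.0, RLE scaling, total counts only, a minimum of 10 counts summed over libraries, no filter, each library left out, the replicate number as a block and, added after the data were seen, leaving out both libraries high in globin RNA.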

Additional observations from a re-analysis of the deposited data

Results flagged for a closer look

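Each group of 4 mice was searched for a mouse far from the other 3 (Dixon's test at the 95% level) in the 53 genes, named pathway genes and marker sums. Of 142 such groups 10 were past it, where chance gives about 1 in 20, or 7.1.

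Saline mouse 3 stood high in Igtp at 49.1 CPM against 19.7 to 21.4 and in Gbp7 at 22.7 CPM against 12.2 to 13.7. It was also high in Socs1 at 0.197 CPM against 0.0962 to 0.103, which is only 6 counts against 3. Mouse 2 of the 4-HPAA group stood high in Igtp at 58.4 CPM against 18.3 to 23.3 and in Irgm2 at 90.5 CPM against 24.2 to 34.5. It stood low in Irf3 at 39.5 CPM against 44.0 to 44.9. Saline mouse 2 was high in Oas3 at 2.85 CPM against 1.19 to 1.41, and saline mouse 1 was low in Ly6e at 153 CPM against 172 to 174. The summed red blood cell markers were 2560 CPM in saline mouse 2 against 247 to 376, and 734 CPM in 4-HPAA mouse 4 against 152 to 163.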

How the results depend on the processing

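Over the 53 genes and the named pathway genes, 975 of 976 log2 fold changes computed under an alternative lay within 1 SD of the value reported. The exception was Oas3, at -0.14 as reported and 0.38 without both libraries high in globin RNA, where the cause was not tested. A bound of 1 SD is wide, and the count says little about stability. Gbp2 fell from 0.45 to -0.04 without 4-HPAA mouse 2 and still lay within it. Direction turned in 39 of the 53 genes with some library left out. It turned in 2 under another test, scaling or filter, and in 10 without both libraries high in globin RNA.

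Over all genes, adjusted calls numbered 0 as reported, 2 with DESeq2 (smallest adjusted p 0.00401), and 0 to 1 with each library left out. The 1 call came without 4-HPAA mouse 1. Unadjusted calls numbered 225 as reported, 415 with a minimum of 10 summed counts and 528 with no filter, where more genes were tested, and 196 to 340 with each library left out. Of the 53 genes, unadjusted calls ran from 1 to 4 with each library left out and were 3 without both libraries high in globin RNA. The median log2 fold change ran from -0.08 (without 4-HPAA mouse 2) to 0.15 (without saline mouse 3) with 1 library left out, was -0.02 without saline mouse 1, and was 0.20 without both libraries high in globin RNA. The number below 0 ran from 7 to 43, and was 3 without both libraries. Unadjusted calls in the pathway list numbered 3 as reported, 1 with limma-voom, 1 without both libraries and 1 to 5 with each library left out.

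In a fit with the replicate block, 0 genes had an adjusted p under 0.05 (edgeR, smallest 0.118), 336 had an unadjusted one, 1 of them among the 53 genes, and the median of the 53 was 0.04 with 16 below 0. Direction turned in 2 of the 53. The labels give no shared litter or day, and same-numbered mice deviated together with correlations of 0.0398, 0.168, 0.268 and 0.48, 1 of the 4 under the 0.1 asked of every pair, and 4 of 8 libraries correlated best with their own number. The numbers were therefore treated as names, although 3 of the 4 pairs lay above 0.1. Counts were low in some of the 53 genes (18 to 49 in Oas1g, 29 to 83 in Oas3 and 28 to 92 in Cxcl10). With 4 mice a group, differences under the SE given, and many above it, could not be told from 0. Irf1, at 0.38 (SE 0.22), had an unadjusted p of 0.12 (edgeR quasi-likelihood test).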
